A study of Homo sapiens with 6 samples.

Results

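Neurotransmitter receptor genes encode the ligand-gated channels and G protein-coupled receptors through which GABA, glycine, glutamate and acetylcholine act at synapses. They were chosen by a rule on their symbols, with earlier results of these data known. The rule took subunits of GABA-A, glycine, nicotinic acetylcholine and ionotropic glutamate receptors, and the metabotropic glutamate receptors. It also required at least 1 input count over both treatments. Of the 56638 genes in the table, 66 had such a symbol and 65 of these met the rule. The muscle nicotinic subunit gene CHRNA1 was at 0 in all 6 libraries and was left out. Of the 65 genes, 64 had at least 100 input counts summed over both treatments, as did 21263 genes of the table, and all counts and medians below are over these genes unless stated. The muscle nicotinic subunit gene CHRNE, with 52 summed input counts, did not pass.

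The libraries came from G401, an established malignant rhabdoid tumor cell line that lacks the chromatin remodeling subunit SMARCB1. Input counts over SMARCB1 were 0 for both treatments. Cells were exposed for 3 days to DMSO, the solvent control, or to 3 µM MAK683, a small molecule that binds the PRC2 subunit EED. One H3K27me3, 1 H3K4me3 and 1 input library were made from each treatment, so all values describe 1 cell line, no value has a replicate error and no test between treatments was possible. Totals ranged from 13308099 to 21281877 counts per library. Intervals are 95% exact Clopper-Pearson intervals and cover counting error only.

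PRC2 trimethylates lysine 27 of histone H3 (H3K27me3) at genes that a cell lineage keeps silent, and many neuronal genes are among its targets in cells that are not neurons. H3K4me3 marks promoters that are active or held ready for activation. Most receptors of this group are pentamers or tetramers built from several related subunits, so the subunit genes of one receptor are normally used together in a neuron or, for the muscle nicotinic receptor, in skeletal muscle. In bulk chromatin, fewer cells carrying a mark and less of the mark in each cell cannot be told apart.

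The receptor genes carried more H3K27me3 than the typical gene of the table. On a log2 scale of CPM (counts scaled to the library total) over the input of the same gene, where 0 is the level of input, their median in DMSO was 0.00068, against -0.75 for all genes. They divided evenly, with 32 above input and 32 below, while 27.3% of all genes were above input. At the high end they were not set apart: 7 of 64, or 10.9%, were at least 2 times input, against 10.7% of all genes. In MAK683 the median was 0.013 against -0.56 for all genes, and 2 of 64, or 3.13%, were at least 2 times input, against 6.71% of all genes. Each library is scaled to its own total, so levels in MAK683 are shares of that library. Here and below they do not give the amount of H3K27me3 left after treatment. The paper reports a genome-wide depletion of H3K27me3 in G401 after MAK683. Counting error alone left 31 members with an interval above input in DMSO and 28 with an interval below it. Such intervals narrow as counts grow, and they were not counted over all genes.

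The 7 genes at least 2 times input in DMSO came from 6 receptor families. GRIK3, which encodes a low-affinity kainate receptor subunit, lies on chr1:37261128-37500116 (GRCh37). With input counts of 2914 (DMSO) and 3684 (MAK683) and H3K27me3 counts of 11128 and 6624, it stood at 1.75 in DMSO (interval 1.69 to 1.81) and 1.40 in MAK683. It was the highest receptor gene in MAK683, where the second gene past the line was GRM6 at 1.03. GRIK4, which encodes a high-affinity kainate subunit that assembles with the low-affinity ones, lies on chr11:120382455-120859615. Its H3K27me3 counts of 15414 and 8897, over input counts of 5534 and 6989, gave 1.29 and 0.90.

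GRID1 encodes a delta receptor, a member of the ionotropic glutamate receptor family that acts mainly in synapse organization. Its 767 kb span on chr10:87359309-88126552 held 24526 (DMSO) and 14827 (MAK683) H3K27me3 counts, over input counts of 9006 and 11048, or 1.26 and 0.98. CHRNA7, whose product forms homomeric nicotinic receptors, had 3812 and 2281 H3K27me3 counts over input counts of 1412 and 1688, or 2.37 and 1.98 times input on the linear scale. Reads of CHRNA7 can also match its partial copy CHRFAM7A, which itself had 50 and 20 H3K27me3 counts, so the split between these genes is uncertain. GABRR3, which encodes a rho subunit of the GABA receptors best known from the retina, had 1555 and 880 H3K27me3 counts over input counts of 550 and 669, or 1.31 and 0.95.

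The other two, both on the X chromosome, share their span with other annotated genes. GABRQ, the gene of the theta subunit of GABA-A receptors, was the highest of all at 1.98 in DMSO (interval 1.68 to 2.31) and 0.93 in MAK683, from 469 and 231 H3K27me3 counts. The DMSO interval of GRIK3 (1.69 to 1.81) lies within that of GABRQ, so counting error does not resolve which is highest. No base of the annotated span of GABRQ is free of other genes, and its input differed between the treatments, with 104 counts in DMSO and 177 in MAK683. GLRA4, a glycine receptor alpha gene that carries a premature stop codon in humans, had 359 and 186 H3K27me3 counts over input counts of 124 and 152, or 1.34 and 0.84, and 18.2% of its span is unshared. Just below the 2-fold line followed the NMDA receptor subunit gene GRIN3A at 0.91 and the metabotropic receptor gene GRM3 at 0.85.

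Among the lowest values were those of nicotinic and NMDA receptor subunits. CHRNA5, an accessory nicotinic subunit gene, was lowest, with 179 H3K27me3 counts over 408 input counts in DMSO and 172 over 378 in MAK683, or -1.37 and -0.58. GRIN2D, an NMDA receptor subunit gene, followed at -1.08 from 372 H3K27me3 counts over 694 input counts, and had 326 over 769 in MAK683. The nicotinic gene CHRNB3 stood at -0.99, with 173 and 115 H3K27me3 counts over 303 and 317 input counts. GRIN3B, a small NMDA receptor subunit gene, stood at -0.90 on 66 H3K27me3 counts over 109 input counts, with 33 over 109 in MAK683.

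**Figure D1:**
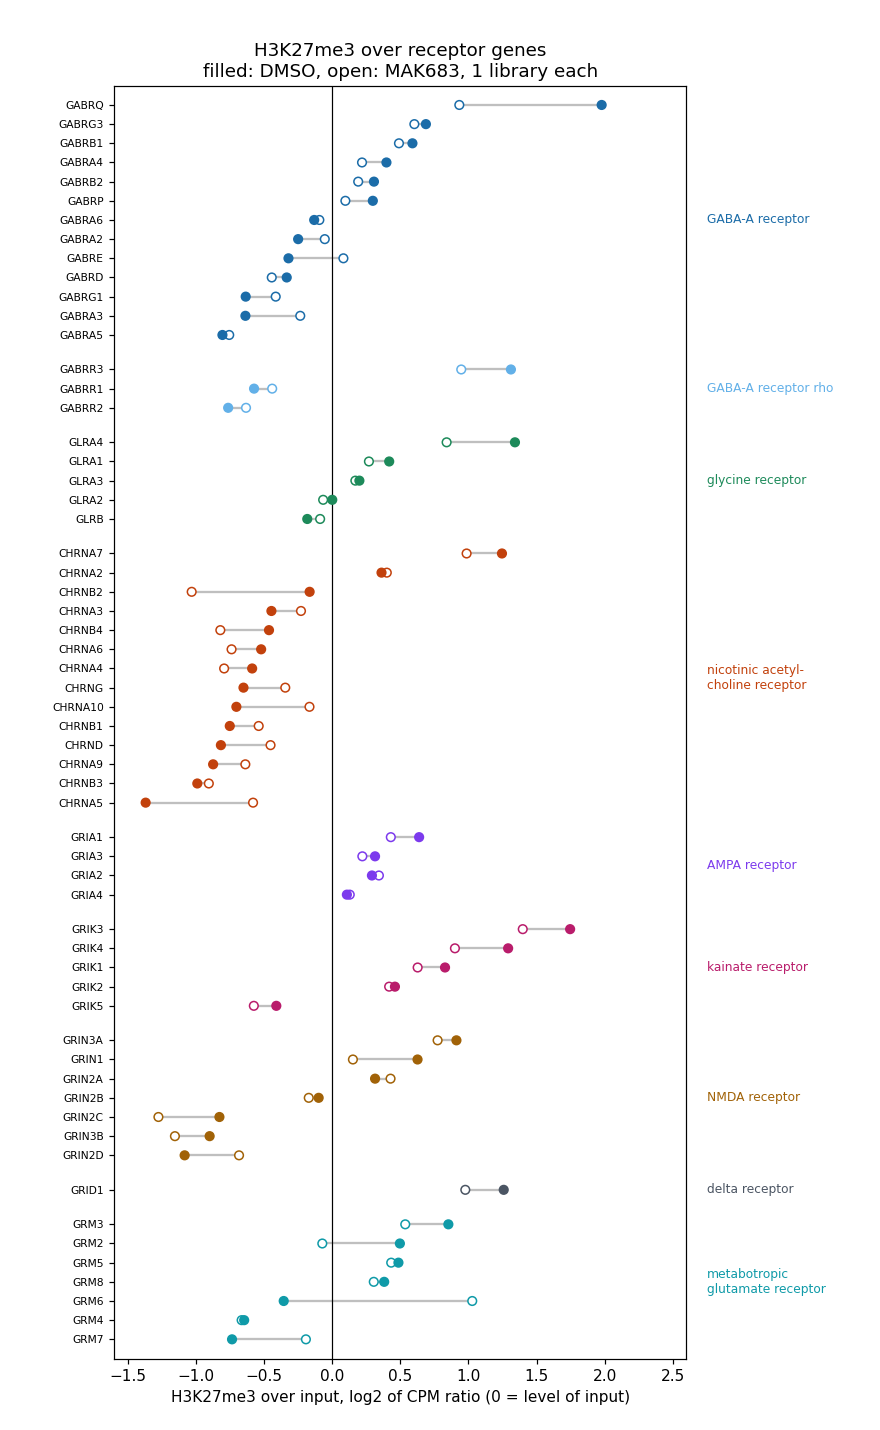
H3K27me3 over input for 59 of the 64 receptor genes, by family. The x axis is the log2 ratio of CPM to the input of the same treatment, filled points are DMSO and open points MAK683, 1 library each. All 4 AMPA receptor genes lie right of the input line in both treatments, while 12 of 14 nicotinic genes lie left of it.

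The receptor families differed in how much H3K27me3 their genes carried. Over all genes the median in DMSO was -0.75, and 27.3% were above input. Among the excitatory glutamate receptors, which depolarize the neuron, the kainate genes had a median of 0.83 in DMSO with 4 of 5 above input, and the AMPA genes 0.30 with 4 of 4. GRIK5 was the kainate exception at -0.41. The AMPA genes GRIA1, GRIA2, GRIA3 and GRIA4, whose products carry fast excitatory transmission, lay close together at 0.64, 0.29, 0.31 and 0.11. The NMDA receptor genes were spread from -1.08 to 0.91 around a median of -0.10. Within this family the obligatory subunit gene GRIN1 stood at 0.63, GRIN2A at 0.31 and GRIN2B at -0.10, and GRIN2C at -0.83.

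The metabotropic glutamate receptors, which signal through G proteins, had a median of 0.43. GRM5 (0.49), which couples to phospholipase C, was above input, as were GRM2, GRM3 and GRM8, while GRM4 (-0.65), GRM6 (-0.36) and GRM7 (-0.74), which with GRM8 form the group III receptors, were below it.

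Among the inhibitory receptors, the GABA-A genes without the rho subunits had a median of -0.066, with 8 of 16 above input. The glycine receptor genes had a median of 0.20, with 3 of 5 above input. The rho genes parted, with GABRR3 at 1.31 and GABRR1 and GABRR2, which lie side by side on another chromosome, at -0.57 and -0.76. The nicotinic genes were the lowest family, at a median of -0.62, which is still above the -0.75 of all genes. Above input were 2 of 14, CHRNA7 and CHRNA2, or 14.3%, against 27.3% of all genes. The muscle subunit genes CHRNB1, CHRND and CHRNG were all below input, at -0.75, -0.82 and -0.65, near the median of all genes.

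Other receptor genes lay between these. GABRD, whose product serves extrasynaptic GABA-A receptors, was at -0.33, and GABRP, a subunit gene best known outside the brain, at 0.30. Of the glycine receptor alpha genes, GLRA1, the main adult form of the spinal cord, stood at 0.42 and GLRA3 at 0.20. CHRNA2 was at 0.36 from 376 H3K27me3 counts over 257 input counts, and CHRNA4, the partner of CHRNB2, at -0.59 from 173 over 229. The kainate genes GRIK1 and GRIK2 stood at 0.83 and 0.46.

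Gene length went along with these differences. Across the 64 genes the Spearman rho of H3K27me3 over input in DMSO with the length of the annotated span was 0.42, and that with the GC content of the span was -0.28. Length and GC content were themselves related, at a rho of -0.66. These are descriptions across genes that share the same libraries. The annotated spans need not be the spans that were counted. Summed input per kb of span was 2.81 for GABRA5, 9.16 for CHRNB4 and 14.1 for GRIK2, against 27.6 for GRIK3. Of the 32 genes longer than 100 kb, 23 were above input, and of the 32 shorter genes 9 were. Over the annotated genes of the table the shares were 37.5% and 19.4% and the rho with length was 0.062, but only 71.8% of the genes with enough input have an annotated span, so a comparison with all genes is void. The kainate genes had a median span of 403 kb and the nicotinic genes one of 24.2 kb. The part of length in the family differences was not tested.

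The receptor genes carried little H3K4me3. Their median over input in DMSO was -0.80, against -0.25 for all genes, and 10 of 64 were above input, against 43.8% of all genes. Only 2 of 64, or 3.13%, were at least 2 times input, against 24.2% of all genes. In MAK683 the median was -0.69 and again 2 of 64, or 3.13%, were at least 2 times input, against 22.6% of all genes. The counts cover whole genes, so a narrow promoter peak weighs less in a long gene. Among the longer genes of the table, those with at least 1000 summed input counts, 6.49% were at least 2 times input in DMSO, and 0 of the 41 receptor genes of that size were.

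The 2 genes past this line encode nicotinic subunits. CHRNA3, the alpha subunit of the receptors of autonomic ganglia, lies on chr15:78885394-78913637 and gave 1116 (DMSO) and 1008 (MAK683) H3K4me3 counts. Over input counts of 283 and 394 this gave 1.64 (interval 1.45 to 1.83) and 1.34. CHRNB1, the beta subunit of the muscle receptor, on chr17:7348380-7361029, had 478 and 371 H3K4me3 counts over input counts of 159 and 186, or 2.37 and 1.98 times input on the linear scale. Both genes were below input in H3K27me3.

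CHRNA5 followed at 0.97 and 0.96, from 1009 and 738 H3K4me3 counts. GRIN1 stood at 0.91 and 0.93, from 851 and 954 H3K4me3 counts over 359 and 499 input counts. GRIN2D stood at 0.60 and 0.69, from 1334 and 1250. In the order CHRNA3, CHRNB1, CHRNA5 and GRIN1 neighbors are not resolved by counting error, since the interval of CHRNB1 (0.99 to 1.52) overlaps those of CHRNA3 and of CHRNA5 (0.80 to 1.14), and the latter overlaps that of GRIN1 (0.73 to 1.09). GABRD came close to the line in MAK683, with 317 H3K4me3 counts over 158 input counts, or 0.99, after 278 over 162, or 0.44, in DMSO. In MAK683 the genes at least 2 times input were CHRNA3 and GRM6, at 1.34 and 1.07.

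The share of receptor genes above input for both modifications was close to that of all genes. In DMSO there were 2 of 64, against 2.89% of all genes: GRIN1 and GRM2, the gene of a presynaptic metabotropic receptor that inhibits glutamate release. GRIN1 stood at 0.63 for H3K27me3 and 0.91 for H3K4me3, and GRM2 at 0.50 and 0.26. In MAK683 there were 3, against 4.62% of all genes: GRIN1, GRM6 and GABRE, and GRM2 was at -0.073 for H3K27me3. Counting error leaves several of these calls unresolved. The intervals of GRM2 for H3K4me3 in DMSO (-0.038 to 0.57) and for H3K27me3 in MAK683 (-0.41 to 0.26) included input. In MAK683 so did those of GRIN1 for H3K27me3 (-0.045 to 0.35) and of GABRE for H3K27me3 (-0.29 to 0.45) and H3K4me3 (-0.20 to 0.46). Below input for both in DMSO were 24 of the 64 genes, or 37.5%, against 31.8% of all genes, among them the muscle genes CHRND and CHRNG.

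**Figure D2:**
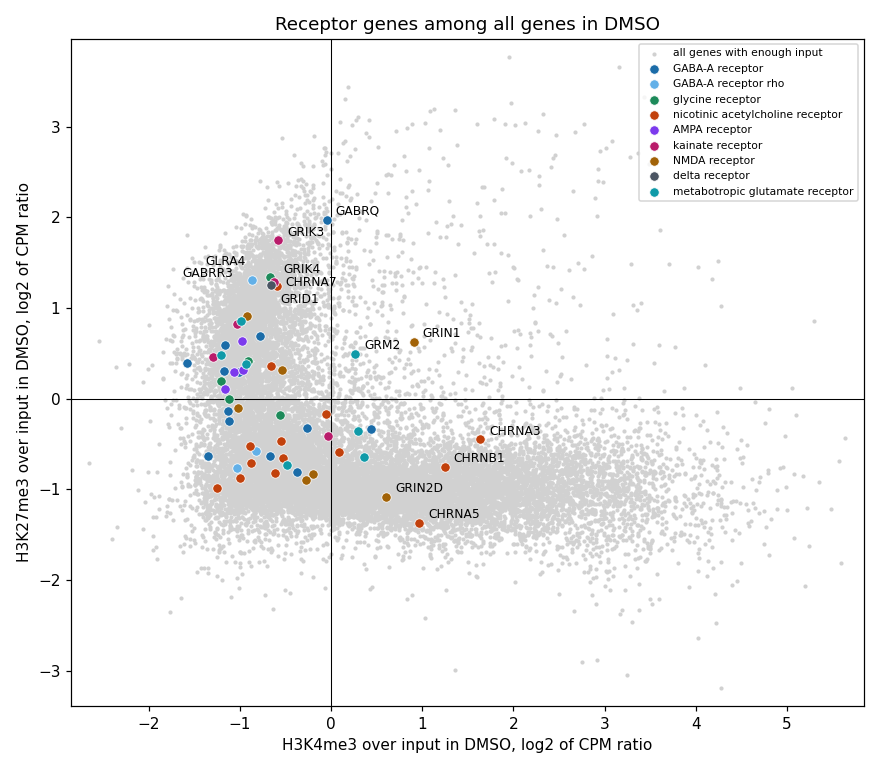
H3K27me3 against H3K4me3 over input in DMSO, both as log2 CPM ratios, with the 21263 genes that have enough input in grey and 59 receptor genes colored by family. The receptor genes form a column on the left at low H3K4me3, and CHRNA3, CHRNB1, CHRNA5, GRIN1 and GRIN2D lie to its right.

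Promoter sequences were looked at beside these levels. Of the 65 genes, 45 had an entry in the RefSeq promoter table of GRCh38.p14, or 69.2%, which is too few for a comparison over the whole group, so only single genes are described. The 250 bases before the start are shown for GRIK3, GRIK4 and GABRR3, with much H3K27me3 over the gene, and for CHRNA3 and CHRNB1, with the most H3K4me3. Capitals mark each CG dinucleotide, the site of DNA methylation in mammals and the defining feature of CpG islands, which reads the same on both strands. The 5′ end is on the left and the coordinates are of GRCh38.p14.
GRIK3: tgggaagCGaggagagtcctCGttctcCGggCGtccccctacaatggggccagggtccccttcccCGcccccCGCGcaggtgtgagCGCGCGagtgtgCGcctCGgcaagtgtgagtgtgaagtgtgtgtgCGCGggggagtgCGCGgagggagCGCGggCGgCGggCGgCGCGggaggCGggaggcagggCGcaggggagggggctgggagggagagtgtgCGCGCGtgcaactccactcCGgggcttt
GRIK4: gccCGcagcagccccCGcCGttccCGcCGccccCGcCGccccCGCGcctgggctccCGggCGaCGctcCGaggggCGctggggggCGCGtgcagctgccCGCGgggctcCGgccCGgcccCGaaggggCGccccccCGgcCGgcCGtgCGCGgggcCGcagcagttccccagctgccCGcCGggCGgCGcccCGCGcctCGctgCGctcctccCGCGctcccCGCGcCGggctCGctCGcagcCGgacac
GABRR3: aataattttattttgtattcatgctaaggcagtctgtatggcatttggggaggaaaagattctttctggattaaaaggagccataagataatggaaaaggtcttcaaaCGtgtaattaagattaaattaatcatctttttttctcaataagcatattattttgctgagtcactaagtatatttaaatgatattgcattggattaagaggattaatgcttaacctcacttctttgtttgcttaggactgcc
CHRNA3: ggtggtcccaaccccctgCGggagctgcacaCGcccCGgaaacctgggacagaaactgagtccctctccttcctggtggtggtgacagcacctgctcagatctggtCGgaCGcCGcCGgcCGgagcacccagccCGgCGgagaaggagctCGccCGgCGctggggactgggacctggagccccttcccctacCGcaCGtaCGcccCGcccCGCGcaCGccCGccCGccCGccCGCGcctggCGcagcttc
CHRNB1: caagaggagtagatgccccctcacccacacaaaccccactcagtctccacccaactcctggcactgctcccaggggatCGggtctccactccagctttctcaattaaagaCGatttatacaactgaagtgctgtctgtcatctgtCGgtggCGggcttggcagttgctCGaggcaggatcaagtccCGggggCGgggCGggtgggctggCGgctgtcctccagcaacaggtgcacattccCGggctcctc

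The windows lie on chr1:37034516-37034765 (minus strand), chr11:120511498-120511747 (plus), chr3:98035316-98035565 (minus), chr15:78620997-78621246 (minus) and chr17:7444811-7445060 (plus), in this order. The kainate receptor promoters are rich in CG: that of GRIK4 holds 44, a number reached by 0.776% of the 27303 promoters in the table, and that of GRIK3 holds 29, reached by 13.8%. The promoter of GABRR3 holds 1 and is 30.8% G or C, and 93.6% of all promoters hold as many or more. Similar whole-gene H3K27me3 levels, 1.29 for GRIK4 and 1.31 for GABRR3, thus stood beside very different promoters. Of the other genes at least 2 times input in DMSO, CHRNA7 and GABRQ had an entry. Their promoters hold 31 and 20 CG, reached by 10.6% and 32.1% of promoters, so the low number of GABRR3 stood alone among these genes. On the H3K4me3 side, the promoter of CHRNA3 holds 26 CG, reached by 19.2% of promoters, and that of CHRNB1 holds 10, reached by 51.9%.

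After 3 days of MAK683, H3K27me3 counts were lower than in DMSO over nearly all receptor genes, but so were those of the whole library, which had 0.694 times the total. Whether the deposited counts carry the spike-in scaling is not known, and no factor comes with them. A genome-wide loss is therefore not read from them, and changes are given relative to the median of all genes. On this scale the receptor genes had a median log2 change of -0.16, with 46 of 64 lower and 18 higher than the median gene. By at least 20% (the inverse of a 25% increase) 13 of 64 genes were lower, or 20.3%, against 14.1% of all genes. By at least 25% 5 genes were higher, or 7.81%, against 15.6% of all genes. In CPM, which shifts the median of all genes by 0.10, the median of the receptor genes was -0.058, 40 were lower and 24 higher, and 6 were lower by at least 20% and 8 higher by at least 25%. Over all genes the CPM shares were 38.4% lower, 7.67% lower by at least 20% and 23.8% higher by at least 25%, so the 6 genes, 9.38% of the receptor genes, are near the share of all genes. The interval of a gene's share of counts in MAK683 lay below that of the median gene for 34 members, above it for 7 and included it for 23. This was not counted over all genes, so it gives no comparison with them.

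Most families leaned lower, as did the whole group at its median of -0.16. Every member of the AMPA (4), kainate (5) and glycine (5) receptor families was lower than the median gene, with medians of -0.16, -0.28 and -0.15. In CPM the glycine family no longer pointed one way, with 3 lower and 2 higher, while the AMPA and kainate genes were still all lower. Over the input of each treatment the AMPA family was split, 2 lower and 2 higher. The GABA-A genes without the rho subunits were 11 lower and 5 higher than the median gene, and the NMDA genes 5 lower and 2 higher. The nicotinic genes divided, 7 lower and 7 higher, as did the rho genes, 1 lower and 2 higher. The metabotropic family had 6 of 8 lower and also held the largest increase.

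Genes with much H3K27me3 in DMSO were lower as a class, in the receptor genes as elsewhere. All 15 receptor genes at least 1.5 times input in DMSO were lower than the median gene, at a median of -0.32. Of the 3922 genes of the table at that level, 96.9% were. These levels share the DMSO H3K27me3 library with the change. When the genes were chosen by their level in MAK683 instead, a grouping added after the data were seen, 11 of 12 receptor genes were lower, as were 93.9% of 3367 genes of the table. Input moved beside it: in those 15 genes the input CPM was higher in MAK683 in 12, at a median log2 ratio of 0.070, against 0.037 for the 3922 genes. Its part in the levels over input was not tested.

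The largest decreases were partly in genes with few counts. CHRNB2, whose product pairs with the alpha4 subunit in the main brain nicotinic receptor, gave 152 (DMSO) and 68 (MAK683) H3K27me3 counts, a relative log2 change of -0.73 (interval -1.17 to -0.32). GABRQ followed at -0.60 (-0.83 to -0.37). GRIN3B, at -0.56 from 66 and 33 counts, had an interval from -1.23 to 0.043 that includes no change. GRM2 went from 246 to 127 counts, or -0.53 (-0.85 to -0.22), and GLRA4 stood at -0.52 (-0.79 to -0.27). Among the deeply counted genes the decreases were smaller, with narrow counting intervals. They were -0.37 for GRIK4 (-0.41 to -0.33), -0.33 for GRIK3 (-0.37 to -0.28) and -0.30 for GRID1 (-0.33 to -0.28). In CPM they were -0.27, -0.22 and -0.20, outside these intervals, which do not cover the choice of scale or the spread between cultures.

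The largest increase was over GRM6, the glutamate receptor of retinal ON bipolar cells. Its H3K27me3 counts were 62 (DMSO) and 98 (MAK683), beside 70 input counts in each, a relative change of 1.07 (0.61 to 1.56). It was also the receptor gene with one of the largest relative H3K4me3 increases, 0.56 (0.20 to 0.94), from counts of 109 and 149. Only 32.7% of its span is unshared with other genes, and its counts were among the lowest of the group. GRM7, a presynaptic receptor gene of 972 kb, was the most deeply counted of the 5 largest increases. Its H3K27me3 counts were 6764 in DMSO and 7052 in MAK683, or 0.48 (0.43 to 0.53). Its H3K27me3 over input, each on the scale of its own library, was -0.74 and -0.19, below input in both.

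The neighbors CHRNA3 and CHRNA5 followed, at 0.38 (0.11 to 0.65) from 236 and 229 counts and at 0.36 (0.053 to 0.67) from 179 and 172. GABRA3 stood at 0.35 (0.23 to 0.48) from 1085 and 1034. These 5 genes were all below input in DMSO, and only GRM6 was above input in MAK683. In CPM all of them were also higher, from 0.46 to 1.17.

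H3K4me3 over the receptor genes was slightly higher in MAK683 relative to all genes. The median log2 change was 0.11, with 51 of 64 higher and 13 lower. By at least 25% 14 genes were higher, or 21.9%, against 13.6% of all genes, and 1 was lower by at least 20%, or 1.56%, against 7.16% of all genes. None reached 1.5-fold in either direction. Among genes with at least 1000 summed input counts the comparison turned round, with 1 of 41 receptor genes higher by at least 25% against 8.08% of all such genes. In the counts as deposited, with no further scaling, the median was -0.0098, and the direction therefore rests on the scaling. The interval of the share in MAK683 lay above the median gene for 29 members, below it for 6 and included it for 29, again not counted over all genes.

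The largest H3K4me3 increases were in genes with few counts. GRM6 (above) was followed by CHRNA10 at 0.56 (0.050 to 1.08), with 58 and 79 counts, and CHRNA9 stood at 0.44 (0.13 to 0.76), with 149 and 187. CHRNA9 and CHRNA10 together form the receptor of cochlear hair cells. The NMDA receptor gene GRIN2C had 266 and 339 counts, or 0.46 (0.23 to 0.70), and its input counts also differed, 241 and 378. GABRA5, with 11.7% of its span unshared, had 96 and 121, or 0.45 (0.047 to 0.85). All 5 stayed below 1.5-fold.

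Increases in genes with more counts had narrower counting intervals. GRIN2A, a main NMDA receptor subunit gene, had 4236 and 4960 H3K4me3 counts, or 0.34 (0.28 to 0.40). CHRNA7 had 1179 and 1415, or 0.38 (0.27 to 0.49). The decreases led with CHRNA5 at -0.33 (-0.47 to -0.20), from 1009 and 738 counts. GABRR1 followed at -0.29 (-0.49 to -0.094) from 481 and 362, and CHRNB1 at -0.25 (-0.45 to -0.053). GRIA2 (1171 and 990 counts) and GRIK2 (3819 and 3260) stood at -0.13 and -0.11. CHRNA5 and CHRNB1 were thus among the genes with the most H3K4me3 in DMSO and among those with the largest decreases. With 1 library per treatment it cannot be told whether these changes exceed the spread between cultures.

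**Figure D3:**
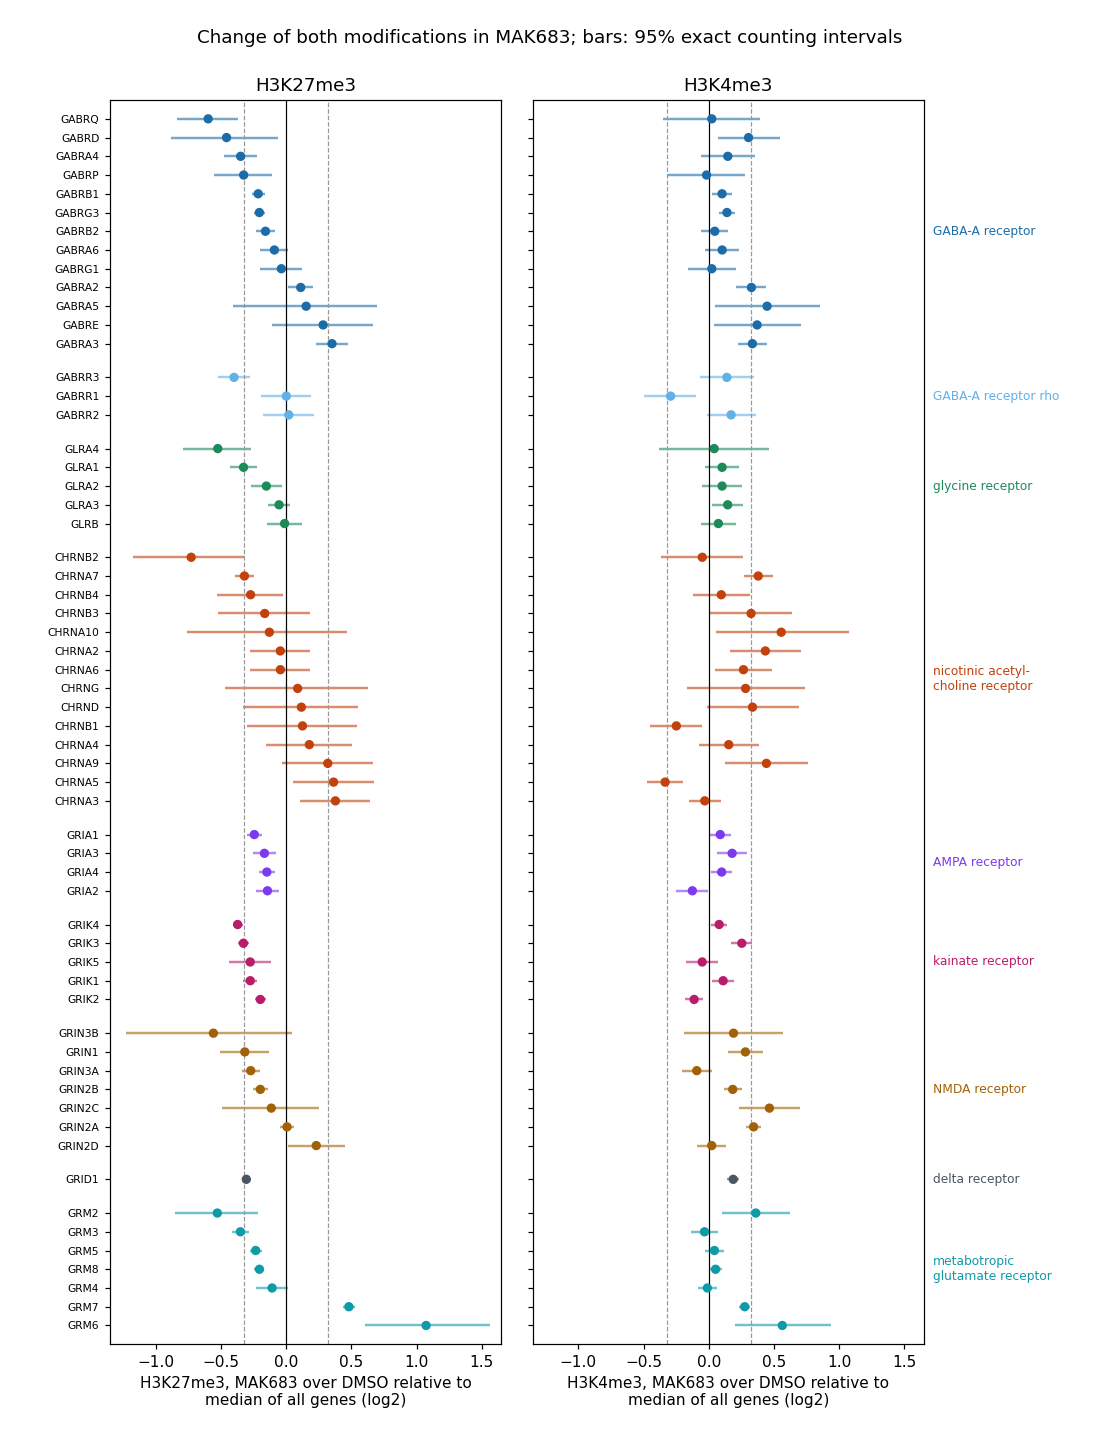
Change in MAK683 over DMSO in 59 receptor genes for H3K27me3 (left) and H3K4me3 (right), as log2 ratios relative to the median of all genes. Points are single genes, bars 95% exact counting intervals and dashed lines a decrease of 20% and an increase of 25%, and GRM6 stands apart on the left panel at 1.07.

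Receptor genes often lie in clusters left by gene duplication. Of the 65 genes, 25 lie within 1 Mb of another one in 9 clusters. Neighbors share chromatin domains and, where spans overlap, reads, so they are not independent. Several clusters were not uniform in H3K27me3.

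Neighboring GABA-A genes on chromosome 15 parted. GABRA5 stood at -0.81 in DMSO, while GABRG3, which starts 22.0 kb farther on, stood at 0.69 from 11216 H3K27me3 counts over 6120 input counts. In MAK683 they stood at -0.76 and 0.60, in the same order. H3K4me3 in DMSO stood at -0.38 (interval -0.80 to 0.037) for GABRA5 and -0.77 (-0.83 to -0.72) for GABRG3, an order that counting error does not resolve. The values of GABRA5 rest on few counts, 64 for H3K27me3 and 96 for H3K4me3 over 99 input counts in DMSO, and 11.7% of its span is unshared.

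A GABA-A cluster on chromosome 4 changed level along its length. GABRG1 and GABRA2 were below input in H3K27me3, at -0.64 and -0.25, and GABRA4 and GABRB1, whose start sites lie 0.142 kb apart on opposite strands, were above it at 0.40 and 0.59. In MAK683 the values were -0.42, -0.055, 0.22 and 0.49, a smaller spread in the same order. GABRA4 had the lowest H3K4me3 over input of all receptor genes, -1.58, from 383 counts over 909 input counts. Elsewhere on this chromosome the glycine beta subunit gene GLRB and the AMPA gene GRIA2, 32.1 kb apart, stood at -0.18 and 0.29.

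GABRB2, the gene of a common synaptic GABA-A beta subunit, and its neighbor GABRA6, used mainly in cerebellar granule cells, lie on chromosome 5 and stood at 0.31 and -0.13 in H3K27me3. Their H3K4me3 was nearly equal, at -1.17 and -1.13. Their H3K27me3 changes in MAK683 were -0.16 and -0.090. The rho pair GABRR1 and GABRR2 on chromosome 6 was below input in both modifications.

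The nicotinic cluster on chromosome 15 was uneven in H3K4me3. CHRNA5 and CHRNA3, whose annotated spans overlap, stood at 0.97 and 1.64 in DMSO, and CHRNB4, which lies 2.82 kb beyond CHRNA3 and whose product joins CHRNA3 in the ganglionic receptor, stood at -0.54 from 354 H3K4me3 counts over 409 input counts. Of the CHRNB4 span, 33.0% is unshared. The muscle subunit genes CHRND and CHRNG, 3.02 kb apart on chromosome 2, were alike, at -0.61 and -0.53 in H3K4me3 and -0.82 and -0.65 in H3K27me3. CHRNB3 and CHRNA6 on chromosome 8, which are used together in dopaminergic neurons, stood at -0.99 and -0.52 in H3K27me3.

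On the X chromosome, GABRE and GABRA3 were below input in H3K27me3 in DMSO, at -0.32 and -0.64, and GABRQ beyond them was at 1.98. In MAK683 the gap narrowed, with the 3 genes at 0.081, -0.24 and 0.93. GABRE and GABRA3 had relative increases of 0.28 and 0.35 and GABRQ the decrease given above. The input CPM of GABRQ was higher in MAK683 by 0.55 on the log2 scale, which enters its level there but not its change in counts.

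**Figure D4:**
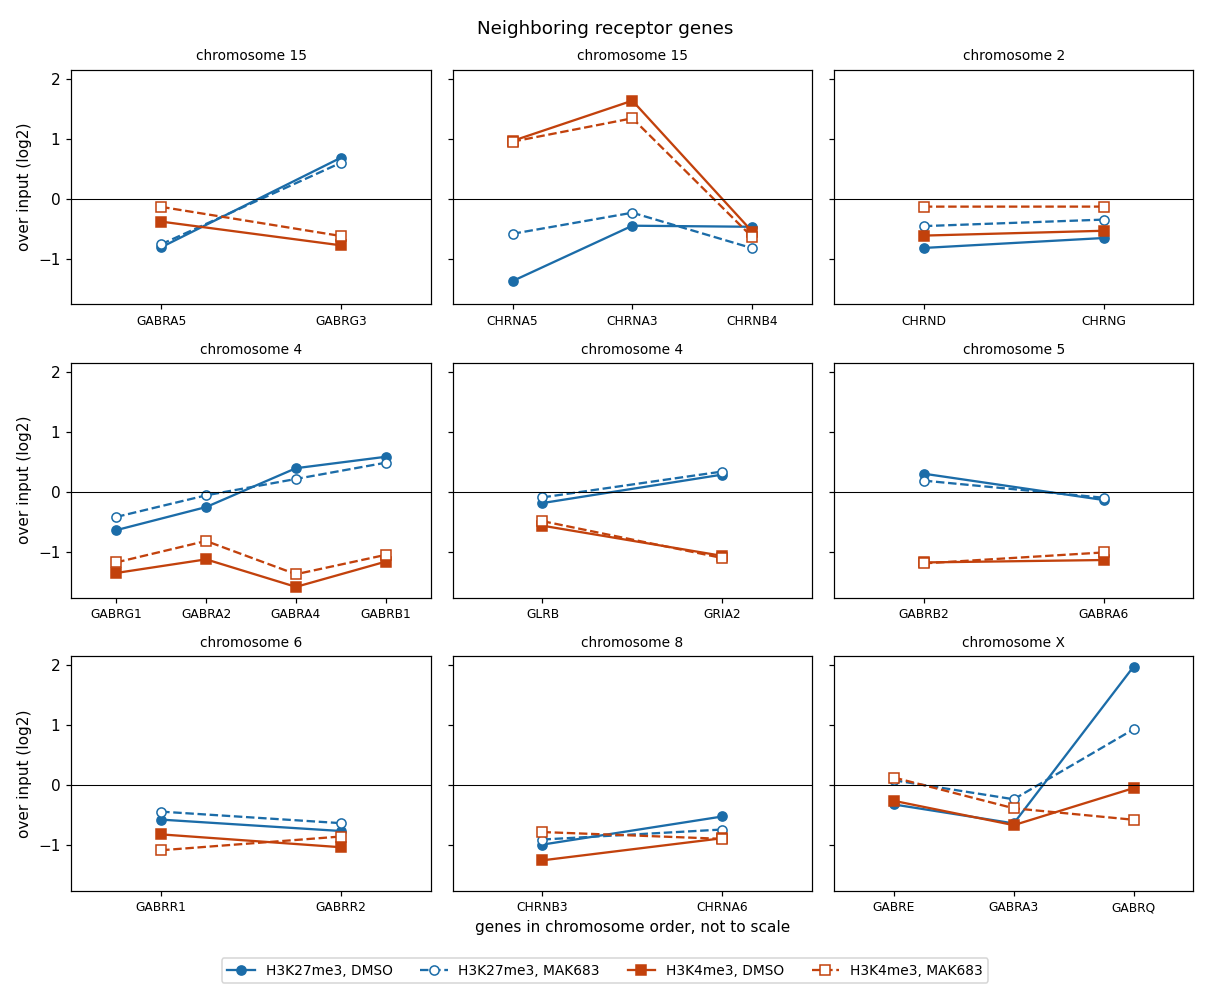
Values over input (log2 CPM ratio) for 22 receptor genes in 9 clusters, in chromosome order and not to scale. Circles are H3K27me3 and squares H3K4me3, filled for DMSO and open for MAK683, and the steps from GABRA5 to GABRG3 and from GABRA3 to GABRQ are the largest in H3K27me3.

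The machinery around the receptors gave a background for these values. In a list of 63 synaptic genes with input counts that make, load, take up or anchor the same transmitters, 60 had enough input. Their median H3K27me3 over input in DMSO was -0.43, below that of the receptors and above the -0.75 of all genes. At least 2 times input were 11 of 60, or 18.3%, against 10.7% of all genes. These 11 genes had several roles: 5 of 8 plasma membrane transporters, 1 of 4 vesicular transporters, 2 of 6 genes of transmitter synthesis and breakdown, 2 of 12 auxiliary subunits and 1 of 5 G protein-coupled receptors. Among them were CHAT, which makes acetylcholine, at 1.75 and the glycine transporter gene SLC6A5 at 1.66. The vesicular GABA and glycine transporter gene SLC32A1 was higher than any receptor gene, at 3.19, from 684 H3K27me3 counts over 65 input counts. Receptor scaffold genes had a median of -0.77, close to that of all genes, with 0 of 14 at least 2 times input. The relative changes of the list in MAK683 had medians of -0.15 for H3K27me3 and 0.11 for H3K4me3. In DMSO 12 of 60, or 20%, were at least 2 times input in H3K4me3, against 24.2% of all genes.

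Potassium channel genes, another large family of neuronal and muscle membrane proteins, were close to the receptors in median H3K27me3 and in the median changes. Over 83 genes with enough input the median H3K27me3 over input in DMSO was 0.021 and the relative change -0.19. A larger part of them, 27.7%, was at least 2 times input, against 10.9% of the receptor genes and 10.7% of all genes. Their H3K4me3 over input in DMSO had a median of -0.54, against -0.80 for the receptor genes, and its relative change one of 0.16. At least 2 times input in H3K4me3 were 10.8% of them, against 3.13% of the receptor genes and 24.2% of all genes.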

How the data were processed

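ChIP-seq counts of G401 cells were analysed in 6 libraries, H3K27me3, H3K4me3 and input for DMSO and for MAK683. Per the submitters' processing notes and methods, the authors trimmed reads with Trim Galore 0.4.4, aligned them to hg19 with Bowtie2, removed repeated sequences with Picard 2.23.6 and counted reads per gene with featureCounts. The deposited values are whole counts per gene. A Drosophila spike-in is described, but no scaling factor was used here. Input counts followed the length of the gene, so the counts cover whole genes and not promoters alone. The annotation used for counting is not given in the sources used here.

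The members and lists were chosen with earlier results of these data known. Full values are given for the 5 highest and 5 lowest genes in H3K27me3 over input in DMSO, the 5 highest in H3K4me3, the 5 largest changes in each direction for both modifications, genes in clusters and those with few input counts. Some genes that meet these rules are not reported here by name, though they are in all counts and medians. Other values, and the promoters shown, were chosen after they were seen. Levels are log2 CPM over the input of the same treatment with 0.05 CPM added, at a minimum of 100 summed input counts. Changes are log2 ratios of counts with 1 added, minus the median of all genes. Spans, overlaps and GC content come from GENCODE release 44 on GRCh37, with all 65 members matched by symbol. Promoters come from RefSeq. Python 3.11.15, pandas 2.3.3, numpy 2.4.6, scipy 1.17.1 and matplotlib 3.10.9 were used. The calculation of changes and intervals was tested on simulated data.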

Additional observations from a re-analysis of the deposited data

How the results depend on the processing

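The 4 main measures, each as a median and as a count of genes past a fold, were recomputed under 66 alternatives, of which 51 stayed within the interval of the median or within 1.5 times the count. Without replicates no library could be left out, and no paired analysis was possible because each group holds 1 library. For H3K27me3 the median change was -0.058 in CPM, -0.071 over the input of each treatment and -0.58 in counts as deposited. In CPM 6 genes, or 9.38%, were lower by at least 20%, against 7.67% of all genes. In the counts as deposited 51 were, or 79.7%, against 62.2% of all genes. For H3K4me3 the median change turned to -0.0098 in the counts as deposited, with 5 genes higher by at least 25%. With at least 1000 summed input counts, H3K27me3 was lower by at least 20% in 7 of 41 genes, against 6.63% of all such genes. In that class the median H3K4me3 change was 0.069, with 1 gene higher by at least 25% (8.08% of all such genes). There 0 receptor genes were at least 2 times input in H3K4me3, against 6.49% of all such genes. At 1.5-fold, 2 of 64 genes were lower in H3K27me3, beside 654 of the 21263 genes of the table. In H3K4me3 0 were higher by that fold, beside 827 of the 21263. At 1.5 times input, 15 of 64 genes were above for H3K27me3, beside 3922 of the 21263, and 5 for H3K4me3, beside 6712. Leaving out X-linked genes or those with under 50% of the span unshared kept every median within its interval. The genes with the fewest counts had fewer than 100 per library, and their intervals are wider than a 25% change.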

Other observations

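CHRNE had 26 input counts in each treatment, 8 and 10 H3K27me3 counts and 20 and 31 H3K4me3 counts in DMSO and MAK683, too few to place it. Of the 64 genes with enough input, 6 had an interval of the input share in MAK683 below the share of the libraries and 11 had one above it. The same was not counted over all genes.

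Beside the muscle nicotinic subunits stand other genes of the cholinergic synapse. RAPSN, which anchors the muscle receptor, was below input for H3K27me3 in DMSO, at -1.20, and for H3K4me3, at -1.02. ACHE, the enzyme that breaks down acetylcholine, had 1606 H3K4me3 counts over 100 input counts in DMSO, or 3.66, and 1338 over 143 in MAK683. Other genes of the list differed from RAPSN in DMSO. MUSK was above input for H3K27me3, at 0.57, as was CHAT (above), and AGRN and LRP4 stood at 1.75 and 1.77 for H3K4me3. All these genes were named after their values were seen.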
